A study of Mus musculus with 212 samples.

Results

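miR-451a, miR-144-3p, miR-144-5p and miR-486a-5p are miRNAs of red blood cells, and Alas2, Hbb-bt and Hbb-bs are genes of haemoglobin production. These 7 were chosen by name as readouts of red cell RNA in mouse brain, out of 28004 features in all (881 in the miRNA tables and 27123 in the mRNA table), and all 7 were found. The series sequenced small RNA from the right brain hemisphere of untreated mice of the LXS panel, recombinant inbred strains derived from 2 parents, ILS and ISS, inbred lines selected for long and short sleep after ethanol. The miRNA tables hold 1 value for each of 59 LXS strains, in an authors' normalized signal, so no error within a strain can be given. The mRNA table holds log2 levels of single profiles, of which 23 could be tied to a labelled strain: 6 belong to ILS, 6 to ISS, 5 to LXS41 and 6 to LXS80. Among the strains in the miRNA tables, 8 carried the tag HIGH, 9 MED and 10 LOW in their library names, and 32 carried none. A strain was counted under a tag if any of its libraries carried it. Of the strains with mRNA profiles, all ISS libraries were HIGH, and some libraries of ILS were MED, of LXS41 LOW and of LXS80 MED. Tag and strain therefore cannot be told apart between these mRNA strains. The sources used here say neither what the tags stand for nor the sex and age of the animals. All strains were inbred, none was treated, and tissue was kept in RNAlater.

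Mature red cells keep an abundant store of miR-451a, which is made with miR-144 from a single primary transcript that GATA1 switches on in erythroid precursors. The miR-451a hairpin is too short for Dicer and is cut by Ago2, whereas the miR-144 hairpin gives an arm on each side. miR-486-5p comes from an intron of the ankyrin gene Ank1 and is also abundant in red cells, and in skeletal and heart muscle. Alas2 is the erythroid enzyme that starts haem synthesis, and Hbb-bt and Hbb-bs encode adult beta-globin chains, which leave the marrow as RNA in reticulocytes. In brain tissue such RNA is known as a trace of the blood held in vessels. In bulk tissue, fewer red cells and less RNA per cell cannot be told apart.

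The mature sequences are shown to set the clustered members apart by their seeds (bases 2 to 8, in capitals). They come from RefSeq on GRCm38.p6, where 3 of the 4 miRNA members were matched by name, all on the plus strand of chromosome 11.

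mmu-miR-451a, chr11:78073186-78073207: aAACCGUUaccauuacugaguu

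mmu-miR-144-3p, chr11:78073047-78073066: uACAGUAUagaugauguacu

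mmu-miR-144-5p, chr11:78073010-78073032: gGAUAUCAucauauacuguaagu

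The 3 seeds differ, and no other of the 1679 mature miRNA names in that reference shares any of them. The hairpins show how the members are arranged, with the mature parts in capitals.

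Mir144 hairpin, chr11:78073005-78073070: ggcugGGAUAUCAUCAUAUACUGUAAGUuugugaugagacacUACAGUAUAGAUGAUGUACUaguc

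Mir451a hairpin, chr11:78073170-78073241: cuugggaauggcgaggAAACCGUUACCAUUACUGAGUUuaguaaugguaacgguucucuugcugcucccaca

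The hairpins lie 99 bases apart, with Mir144 upstream. The mature miR-144-3p is 20 bases long in this reference, miR-451a 22 and miR-144-5p 23, and the libraries were cut to fragments of 20 to 35 bp according to the labels.

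All 4 miRNAs were readily measured in every strain. miR-451a ran from a normalized signal of 4333 in LXS107 over a median of 11779 to 19712 in LXS84, a 4.55-fold span, and its mean ranked 95 among the 881 features. miR-144-3p ran from 415 in LXS19 over a median of 880 to 1595 in LXS64. Its partner arm miR-144-5p was the steadiest of the members, with 818 in LXS25, a median of 1388 and 2155 in LXS92. miR-486a-5p was the most abundant member, with 14404 in LXS70, a median of 28259 and 69030 in LXS25, a 4.79-fold span. Its values were shadowed by miR-486b-5p, which lay 1.01- to 1.02-fold above it in every strain, so the 2 names cannot be separated in these tables and miR-486a-5p stands for both copies.

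The spread between strains lay around that of other miRNAs in these brains. The SD of the log2 level was 0.54 for miR-451a, 0.47 for miR-144-3p, 0.31 for miR-144-5p and 0.56 for miR-486a-5p, the largest of the 4, against a median SD of 0.42 over the 647 features with a mean signal of at least 10. The ratio of miR-451a to miR-144-3p was not constant. It ran from 5.26 in LXS107 over a median of 12.1 to 23.02 in LXS103. The ratio of miR-144-5p to miR-144-3p, 2 arms of the same hairpin, ran from 0.925 in LXS64 over a median of 1.57 to 3.39 in LXS32.

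For 3 of the 4 miRNAs, the 10 strains at 1 end of the order shared their sequencing batches. The 5 strains highest in miR-451a were LXS84, LXS16, LXS78, LXS73 and LXS39, and the 5 lowest were LXS32, LXS19, LXS92, LXS3 and LXS107. All 10 strains at the top for miR-451a had their libraries in batches 4 and 5 alone, and so did all 10 at the top for miR-144-3p. The 10 strains lowest in miR-486a-5p also had their libraries in batches 4 and 5 alone, and 3 of these were among the 10 highest in miR-451a. miR-144-5p had no such order: 5 of its 10 highest strains had all libraries in batches 4 and 5, as had 2 of its 10 lowest, and its 4 highest, LXS92, LXS99, LXS94 and LXS41, did not. Neighbours in the order cannot be told apart or ranked with an error, because each strain has 1 deposited value.

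Sequencing batch therefore had to be read before any strain difference. Libraries of 27 strains came from batches 4 and 5 alone, those of 13 strains from batches 2 and 3 alone, and those of the other 19 strains from batch 1 alone (2 strains) or from other combinations of batches. All 13 strains of batches 2 and 3 carried a tag and none of the 27 did. Batch and tag therefore cannot be told apart between these groups. miR-451a had 9822 to 19712 with a median of 14015 in the strains of batches 4 and 5, against 6639 to 13856 with a median of 8373 in the strains of batches 2 and 3. Of the 27 later strains, 14 lay above every one of the 13 earlier strains. At least 14 did so in 9.58% of the 647 features with a mean signal of at least 10. In 15.3% of these features, at least 14 later strains lay below every earlier strain. miR-144-3p moved the same way, with a median of 1070 (715 to 1595) in the later strains and 716 (512 to 1115) in the earlier strains, and 11 of 27 later strains lay above all earlier ones. At least 11 did so in 13.3% of the 647 features, and at least 11 lay below all earlier ones in 19.2%. miR-144-5p overlapped widely, with medians of 1458 in the later strains and 1283 in the earlier strains.

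miR-486a-5p went the opposite way. It had 14404 to 29173 with a median of 21235 in the strains of batches 4 and 5, against 25178 to 69030 with a median of 40348 in the strains of batches 2 and 3. In 23 of the 27 later strains it lay below all earlier strains. At least 23 later strains did so in 5.87% of the 647 features, and at least 23 lay above all earlier strains in 3.86%. No member had groups without any overlap, against 3.71% of the 647 features.

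**Figure D1:**
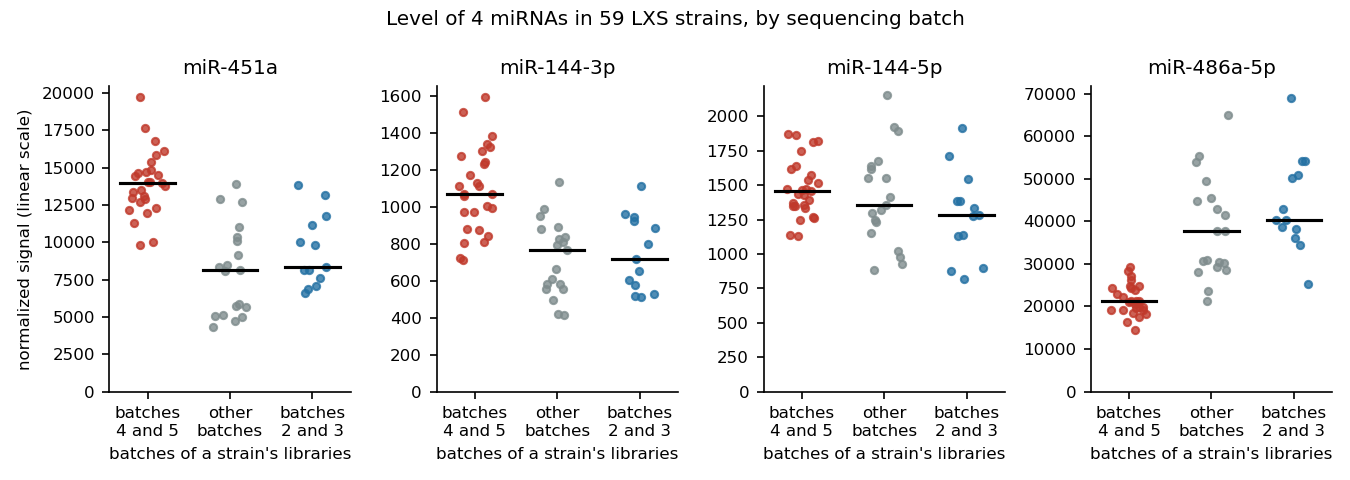
Normalized signal (linear scale) of the 4 miRNAs in 59 strains, 1 point per strain, split by the sequencing batches of the strain's libraries, with black bars at the medians. miR-451a had a median of 14015 in strains of batches 4 and 5 and 8373 in strains of batches 2 and 3, and miR-486a-5p had 21235 and 40348 in the same groups.

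An F test over batch shares, the fractions of a strain's libraries that came from each batch (limma, on log2 of the signal plus 1, adjusted over all features) called all 4 members, beside 86.7% of the 647 features tested. A share this high in the background means that the call itself sets no member apart. The batch shares accounted for 70.5% of the variance of miR-486a-5p (adjusted p = 1.65e-13) and for 61.6% of that of miR-451a (adjusted p = 1.25e-10). They accounted for 44.8% of that of miR-144-3p (adjusted p = 1.57e-06) and for 32.1% of that of miR-144-5p (adjusted p = 0.000381). The median over all features was 41.0%, so the 2 arms of miR-144 lay near or below it.

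Sums of neuron and vascular miRNAs differed between the batch groups too, and that of leukocyte and platelet miRNAs was about level. The summed signal of the 2 neuron miRNAs found of 3 listed was 652105 to 824836 in the strains of batches 4 and 5, against 251209 to 560091 in the strains of batches 2 and 3. That of 5 vascular miRNAs had a median of 502381 in the later strains and 362048 in the earlier strains, and that of 6 leukocyte and platelet miRNAs 11440 and 11778. All 13 of these and all 7 other erythroid miRNAs found were called in the batch test, as were 86.7% of the 647 features. Their part in the members' values was not tested.

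The coordination of the members over strains was then measured, for which the cluster neighbours come first. Over all 59 strains miR-451a was correlated with miR-144-3p (Pearson r = 0.58, Spearman rho = 0.57, each adjusted p = 1.71e-05 in a two-sided permutation test, over 12 values in 6 pairs; the unadjusted 1e-05 is the smallest that 100000 resamples can give). Without the 2 strains farthest from the median of miR-451a, r was 0.59. With batch shares removed from both, r was 0.47 (permutation p = 0.00017, adjusted p = 0.00068). Within the 27 strains of batches 4 and 5 it was 0.38 (permutation p = 0.0503, adjusted p = 0.121), and within the 13 strains of batches 2 and 3 it was -0.35 (permutation p = 0.24, adjusted p = 0.525). The pooled relation of these cluster neighbours thus did not pass the test within either batch group, and it had the opposite sign in the smaller one.

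The arms of miR-144 gave the steadiest pair. Their r was 0.57 over 59 strains (rho = 0.53; permutation p = 1e-05 and 3e-05, adjusted p = 1.71e-05 and 4.5e-05) and 0.50 with batch shares removed (permutation p = 0.00012, adjusted p = 0.00068). It was 0.59 in the strains of batches 4 and 5 (permutation p = 0.0014, adjusted p = 0.00984) and 0.55 in those of batches 2 and 3 (permutation p = 0.0541, adjusted p = 0.424). Without the 2 farthest strains the pooled r was 0.57.

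miR-451a and miR-144-5p did not pass the test over all strains (r = 0.14, rho = 0.23, permutation p = 0.303 and 0.0745, adjusted p = 0.303 and 0.0889; r = 0.17 without the 2 farthest strains). They did in the strains of batches 4 and 5 (r = 0.50, rho = 0.56, permutation p = 0.00753 and 0.00243, adjusted p = 0.0226 and 0.00984), where r was 0.62 without the 2 farthest strains. In the strains of batches 2 and 3, r was 0.02. In the authors' variance-stabilized table the pooled r was 0.41 (permutation p = 0.00142, equal after adjustment).

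miR-486a-5p ran against the cluster in the pooled data. Its r with miR-451a was -0.65 (rho = -0.64, each permutation adjusted p = 1.71e-05; r = -0.65 without the 2 farthest strains) and with miR-144-3p -0.71 (rho = -0.68, each permutation adjusted p = 1.71e-05; r = -0.67 without the 2 farthest strains). Within batches no inverse relation to miR-451a was seen. The r was 0.15 in the 27 strains of batches 4 and 5, 0.14 in the 13 strains of batches 2 and 3, and 0.32 in the 8 strains with all libraries in batch 5, none past the permutation test (exact over the 8 strains; adjusted p from 0.676 to 0.964). With batch shares removed it was -0.25 (permutation p = 0.0548, adjusted p = 0.0939). With miR-144-3p, the inverse relation passed with batch shares removed (r = -0.41, rho = -0.33, permutation p = 0.00123 and 0.0102, adjusted p = 0.00295 and 0.0204). Its r was -0.05 in the strains of batches 4 and 5, and it was -0.50 in those of batches 2 and 3 (permutation p = 0.0842, adjusted p = 0.424). With miR-144-5p the pooled r of -0.30 (rho = -0.23; permutation p = 0.0224 and 0.0815, adjusted p = 0.0299 and 0.0889) became -0.17 without the 2 farthest strains, so it rests on those strains. In the variance-stabilized table it was -0.44 over the 59 strains (rho = -0.42; permutation p = 0.00043 and 0.00137, adjusted p = 0.000516 and 0.00142), and with batch shares removed from the signal -0.06 (adjusted permutation p = 0.732).

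**Figure D2:**
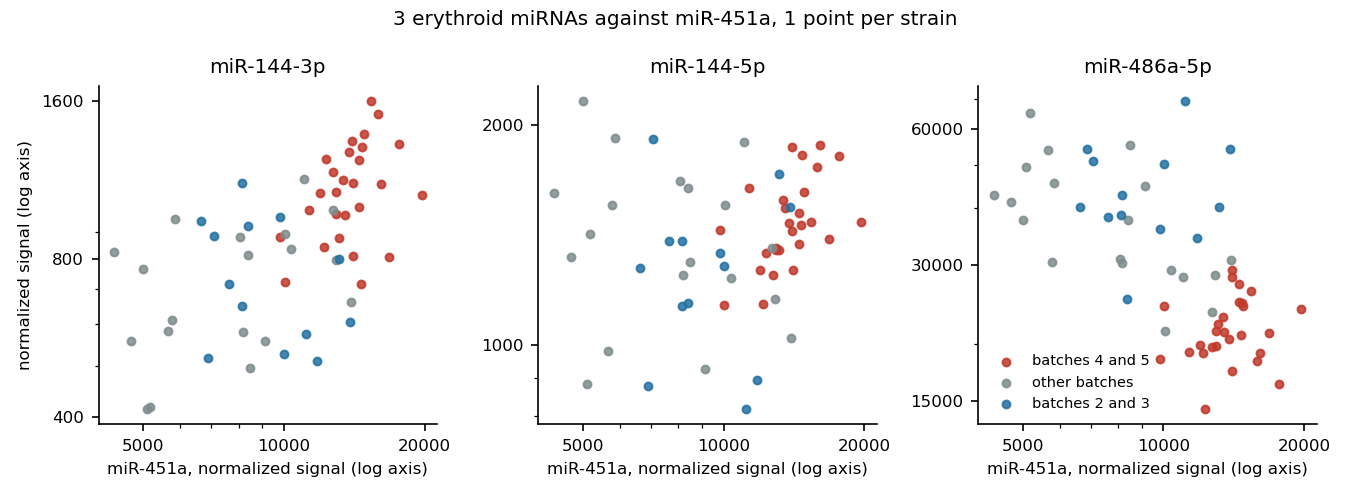
miR-144-3p, miR-144-5p and miR-486a-5p against miR-451a in 59 strains, 1 point per strain, normalized signal on log axes, coloured by the batches of the strain's libraries. The strains of batches 4 and 5 sit at the high end of miR-451a and the low end of miR-486a-5p, and miR-486a-5p shows no fall with miR-451a within the strains of batches 4 and 5 (r = 0.15) or of batches 2 and 3 (r = 0.14).

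**Figure D3:**
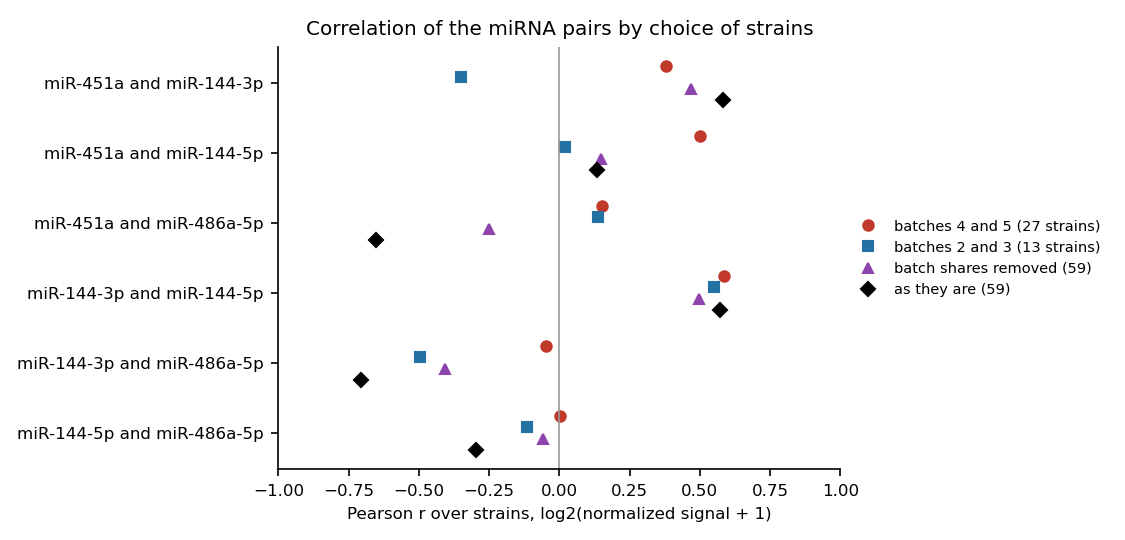
Pearson r of the 6 miRNA pairs over strains, in strains of batches 4 and 5, in strains of batches 2 and 3, with batch shares removed and as they are. The arms of miR-144 stay between 0.50 and 0.59 throughout, and miR-451a with miR-486a-5p lies at -0.65 as they are and at 0.15 and 0.14 within the batch groups.

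Set against all features, miR-144-3p was among many that varied with miR-451a. In a limma fit with batch shares as covariates, 43.7% of the other 646 features varied with miR-451a, 138 with it (21.4%) and 144 against it (22.3%). miR-144-3p changed by 0.49 log2 units per log2 unit of miR-451a (SE 0.12, adjusted p = 0.00143). miR-144-5p had a slope of 0.11 (SE 0.10, adjusted p = 0.388) and miR-486a-5p one of -0.23 (SE 0.12, adjusted p = 0.113) in that limma fit. By the size of r as the levels are, miR-486a-5p ranked 156, miR-144-3p 232 and miR-144-5p 562 among the 646. With batch shares removed, miR-144-3p ranked 110 (r = 0.47), miR-486a-5p 340 (-0.25) and miR-144-5p 457 (0.15). The median size of r was then 0.27. In the strains of batches 4 and 5 alone the same limma fit called 0 features, with 39 at an unadjusted p under 0.05, and the slopes of miR-144-3p, miR-486a-5p and miR-144-5p were 0.58, 0.38 and 0.34 there (each adjusted p = 0.708).

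The features most like miR-451a over the 59 strains were not miRNAs of its cluster. By the size of r they were miR-195a-3p (r = -0.85), miR-296-3p (-0.85), miR-1251-5p (0.84), miR-31-3p (0.83), miR-345-5p (0.83), miR-3099-3p (-0.83), miR-485-5p (-0.83), miR-540-3p (-0.83), miR-27b-5p (-0.82) and miR-423-5p (-0.82). Batch shares accounted for 58.7% to 74.4% of the variance of each of these 10. With batch shares removed, each kept its sign. The negative r then ran from -0.66 (miR-540-3p) to -0.61 (miR-27b-5p), and the positive from 0.56 (miR-345-5p) to 0.62 (miR-1251-5p). By size these ranked from 3 to 34 among the 646, against 110 for miR-144-3p (0.47). All 10 were called in the limma fit with batch shares (adjusted p at most 0.000188). In the later strains alone that fit called none of them.

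Of the 7 other erythroid miRNAs found, 3 varied with miR-451a and 2 against it, with a median slope of 0.19 against 0.02 over all features; all list counts here stand beside the 43.7% called among all features. miR-15b-5p had a slope of 0.68 (adjusted p = 1.42e-05, limma), and the passenger arms miR-486b-3p and miR-486a-3p had slopes of -0.71 and -0.70 (adjusted p = 0.000595 and 0.000771, limma). Of 6 leukocyte and platelet miRNAs 3 were called as varying with it and 0 as varying against it, with a median slope of 0.07. The uncalled miR-150-5p, miR-146a-5p and miR-155-5p had negative slopes of -0.27, -0.27 and -0.12 (adjusted p = 0.181, 0.250 and 0.458, limma). miR-223-3p, a miRNA of granulocytes and platelets, had a slope of 0.62 (adjusted p = 0.000317, limma), and the arms of miR-142a, a miRNA of haematopoietic cells, had slopes of 0.34 and 0.25 (adjusted p = 0.0127 and 0.0356, limma). Of 5 vascular miRNAs 2 varied with it, miR-143-3p of smooth muscle with a slope of 0.26 and miR-126a-3p of endothelium with one of 0.23 (adjusted p = 0.0143 and 0.0479, limma). These shares, 3 of 6 and 2 of 5, lay near that of all features. Of the 2 neuron miRNAs, miR-124-3p had a slope of 0.47 (adjusted p = 0.00151, limma), about that of miR-144-3p, and miR-9-5p one of 0.09 (adjusted p = 0.341, limma). None of these passed in the strains of batches 4 and 5 alone.

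The library tags HIGH and LOW showed no difference in the members that passed the test. miR-451a had 4712 to 11779 with a median of 8431 in the 8 HIGH strains, against 4333 to 13856 with a median of 7133 in the 10 LOW strains. miR-144-3p had medians of 543 in HIGH and 757 in LOW strains, miR-144-5p 1308 and 1467, and miR-486a-5p 50475 and 42865. The ranges of the groups overlapped for each of the 4. With batch shares in the limma fit, HIGH minus LOW was 0.02 (SE 0.16) for miR-451a, -0.28 (SE 0.17) for miR-144-3p, -0.06 (SE 0.13) for miR-144-5p and 0.16 (SE 0.13) for miR-486a-5p on the log2 scale, with adjusted p from 0.981 to 0.993. The limma fit called 0% of the 647 features, with 26 at an unadjusted p under 0.05. All tagged strains had libraries in batches 1 to 3, and no strain of batches 4 and 5 alone carried a tag. Of the untagged strains, LXS8, LXS50, LXS72, LXS100 and LXS112 also had libraries in batches 1 to 3. Outside these strains, carrying a tag cannot be told apart from those batches.

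In the mRNA profiles the 3 erythroid genes had mean log2 levels of 7.06 (Alas2), 6.32 (Hbb-bs) and 6.08 (Hbb-bt). These lay below the median over all genes, which was 7.11 to 7.24 across the profiles. Alas2 was at or above 6 in all 23 profiles, Hbb-bs in 21 and Hbb-bt in 13, where 6 in at least 5 profiles was the filter for testing. In mouse, the adult beta-globin genes carry the names Hbb-bs and Hbb-bt in some strains and Hbb-b1 and Hbb-b2 in others, and the copies are closely alike, so signal assigned to a single copy is uncertain. The promoters of the 3 genes are shown to describe their letters, and no link of these to the levels was tested. They run from 250 bases before to 50 after the start in RefSeq (GRCm38.p6), 5′ to 3′ on the gene's strand. Capitals mark GATAA (the core letters of GATA sites), CACCC (of KLF1 sites), CCAAT and TATAA, each searched on both strands, with overlapping matches merged.

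Alas2, chrX:150547167-150547466, plus strand: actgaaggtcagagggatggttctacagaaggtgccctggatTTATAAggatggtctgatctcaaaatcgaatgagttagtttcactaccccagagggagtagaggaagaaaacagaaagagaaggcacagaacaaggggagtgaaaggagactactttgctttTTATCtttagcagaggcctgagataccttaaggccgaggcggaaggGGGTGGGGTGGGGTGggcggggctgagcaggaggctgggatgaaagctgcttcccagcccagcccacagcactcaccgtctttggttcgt

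Hbb-bt, chr7:103813874-103814173, minus strand: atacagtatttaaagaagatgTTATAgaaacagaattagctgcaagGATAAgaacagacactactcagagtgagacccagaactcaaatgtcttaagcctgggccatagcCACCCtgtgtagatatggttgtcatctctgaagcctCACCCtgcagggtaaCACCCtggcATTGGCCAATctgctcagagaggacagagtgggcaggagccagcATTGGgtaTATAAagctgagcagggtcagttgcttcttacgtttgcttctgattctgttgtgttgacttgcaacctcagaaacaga

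Hbb-bs, chr7:103827879-103828178, minus strand: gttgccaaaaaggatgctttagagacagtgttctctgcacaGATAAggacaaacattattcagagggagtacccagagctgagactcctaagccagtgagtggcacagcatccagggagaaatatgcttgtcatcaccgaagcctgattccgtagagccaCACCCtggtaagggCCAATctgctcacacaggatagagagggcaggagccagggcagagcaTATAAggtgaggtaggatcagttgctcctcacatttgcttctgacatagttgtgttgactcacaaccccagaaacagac

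Each promoter held 1 GATAA match, and 25.4% of the 32851 promoters in that reference hold at least 1. CACCC was found 3 times in Alas2, 3 times in Hbb-bt and 1 time in Hbb-bs. At least 1 match is held by 57.5% of all promoters, and no share was computed for 3 matches. CCAAT (37.4% of all promoters) was found 3 times in Hbb-bt and 1 time in Hbb-bs, and no letters of it were in the Alas2 window. TATAA (24.9% of all promoters) began 28 bases before the start of Hbb-bt and 29 bases before that of Hbb-bs; in Alas2 its matches lay 208 and 207 bases before the start, on opposite strands and overlapping. These matches describe the letters of the windows.

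Alas2 lay between 6.73 and 7.66 in the 23 profiles. In ILS it was 6.94, 7.02, 7.12, 6.88, 7.04 and 7.19 (profiles 1 to 6). In ISS it was 6.93, 7.02, 7.14, 7.102, 7.20 and 7.66, and ISS profile 6 was the highest of all. The other 5 ISS values, from 6.93 to 7.20, overlapped those of ILS. In LXS41 it was 6.998, 7.001, 6.93, 6.90 and 7.25, and in LXS80 6.73, 7.13, 6.97, 7.13, 7.01 and 7.06.

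Hbb-bt varied more. In ILS it was 5.81, 5.86, 6.61, 5.57, 6.23 and 6.38, and in ISS 5.78, 6.27, 6.11, 6.58, 6.46 and 6.87, the highest again in ISS profile 6. In LXS41 it was 5.34, 6.24, 5.70, 5.67 and 6.04, and in LXS80 5.76, 6.03, 6.26, 6.55, 5.68 and 5.94. Strain ranges overlapped for all 4 strains.

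Hbb-bs was narrower in ISS than elsewhere. It was 6.28, 6.23, 6.43, 6.49, 6.84 and 6.35 in ILS, and 6.43, 6.25, 6.41, 6.33, 6.30 and 6.38 in ISS. In LXS41 it was 6.68, 6.20, 5.98, 6.20 and 6.62, and in LXS80 6.38, 5.93, 6.33, 6.13, 6.15 and 6.07. ISS profile 6, the highest in Alas2 and Hbb-bt, was in the middle of the ISS values of Hbb-bs.

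**Figure D4:**
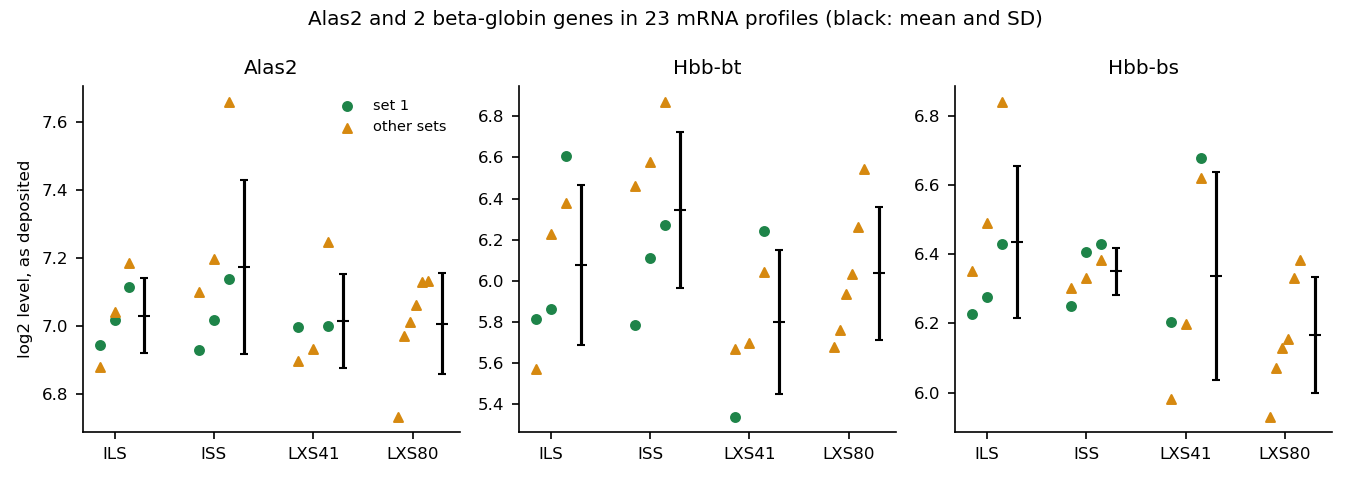
Deposited log2 levels of Alas2, Hbb-bt and Hbb-bs in 23 profiles of ILS, ISS, LXS41 and LXS80, with circles for profiles of set 1, triangles for other sets, and the mean and SD in black. The strains overlap in each gene, and ISS profile 6 stands alone at 7.66 for Alas2.

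Between ILS and ISS, the parents, no difference in these genes passed the test across all genes. Alas2 averaged 7.03 ± 0.11 in ILS and 7.18 ± 0.26 in ISS, Hbb-bt 6.08 ± 0.39 and 6.35 ± 0.38, and Hbb-bs 6.44 ± 0.22 and 6.35 ± 0.07 (log2, SD, n = 6 each). ILS minus ISS was -0.14 for Alas2 (SE 0.10, adjusted p = 0.432, limma), -0.27 for Hbb-bt (SE 0.19, adjusted p = 0.484, limma) and 0.09 for Hbb-bs (SE 0.11, adjusted p = 0.738, limma), against 7.6% of the 20617 genes called, 3.39% higher and 4.21% lower in ILS. Column names give each profile a set number, and the parents share set 1 alone. Within set 1, with 3 profiles each, ILS minus ISS was -0.004 for Alas2, 0.04 for Hbb-bt and -0.05 for Hbb-bs (adjusted p from 0.936 to 0.994, limma). In the later sets, 11 for ILS and 15 for ISS, it was -0.28, -0.58 and 0.22 for the same genes (adjusted p = 0.463, 0.278 and 0.524, limma), and there strain and set cannot be told apart.

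LXS41 and LXS80 gave no call for the members either. Alas2 averaged 7.01 ± 0.14 in LXS41 (n = 5) and 7.01 ± 0.15 in LXS80 (n = 6), Hbb-bt 5.80 ± 0.35 and 6.04 ± 0.32, and Hbb-bs 6.34 ± 0.30 and 6.17 ± 0.17 (log2, SD). LXS41 minus LXS80 was 0.01 (SE 0.10), -0.24 (SE 0.20) and 0.17 (SE 0.12) for these genes, with adjusted p of 0.965, 0.428 and 0.310 (limma), where 20.7% of the 20617 genes were called, 2.03% higher and 18.7% lower in LXS41 (419 and 3847 genes); after quantile normalization 457 were called higher and 753 lower. No set was shared by these strains. An F test over the 4 strains called 22.6% of the genes and none of the 3 members (adjusted p = 0.396 for Alas2, 0.186 for Hbb-bt and 0.242 for Hbb-bs, limma).

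The other erythroid genes gave no call either. Of 24 listed, 19 were found by symbol and 14 passed the filter, the 3 members included, and none of the 14 was called between the parents, between LXS41 and LXS80 or in the F test. Over all genes these 3 tests called 7.6%, 20.7% and 22.6%. Their median difference was 0.06 for ILS minus ISS, against -0.007 over all genes. Of 11 haem synthesis genes, Ppox (0.18, adjusted p = 0.0112, limma), the enzyme before ferrochelatase, was higher in ILS and Cpox (-0.14, adjusted p = 0.0433, limma), which acts before Ppox, was lower. Alas1, the housekeeping counterpart of Alas2, was lower in LXS41 than in LXS80 (-0.16, adjusted p = 0.0410, limma). Of 7 leukocyte and platelet genes past the filter, 2 were called higher in ILS than in ISS, Ngp of granulocytes by 0.39 and Ppbp of platelets by 0.20 (adjusted p = 0.00745 and 0.0480, limma). The rest were not called and did not share 1 direction: Pf4 was -0.19, Itga2b -0.01, Gp9 0.04, Camp 0.05 and Cd3e 0.07. The summary level of this list, the mean log2 over the 12 listed genes, was 6.14 to 6.23 in ILS and 6.05 to 6.18 in ISS, and its part in the values of the members was not tested. These calls between the parents came from the fit without set, which called 3.39% of all genes higher and 4.21% lower in ILS.

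Within strains, Alas2 and Hbb-bt moved together and Hbb-bs did not follow. The profiles of each strain came from different sets, and differences between sets were left in the values. After removal of strain means, r of Alas2 and Hbb-bt was 0.67 over the 23 profiles (rho = 0.68; permutation p = 0.00111 and 0.00106, each adjusted p = 0.00333 over 6 values in 3 pairs, two-sided and within strains). Without the 2 profiles farthest from the median of Alas2, r was 0.62 (permutation p = 0.00341, adjusted p = 0.0108), and leaving out each profile in turn it was 0.61 to 0.71. Alas2 and Hbb-bs had an r of 0.02 (permutation p = 0.923, adjusted p = 0.988; 0.12 without the 2 farthest), and Hbb-bt and Hbb-bs one of -0.05 (permutation p = 0.823, adjusted p = 0.988; -0.07 without the 2 farthest).

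**Figure D5:**
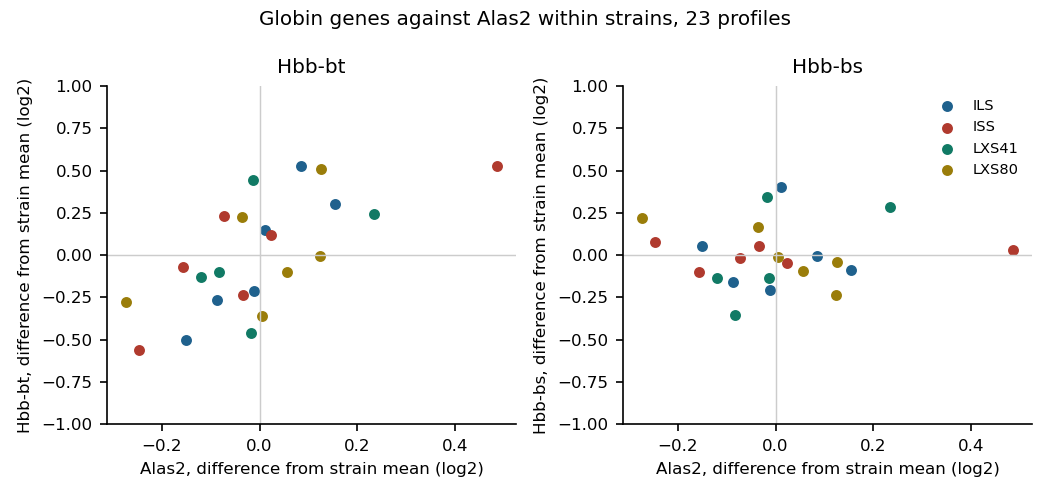
Hbb-bt and Hbb-bs against Alas2 in 23 profiles, each as the difference from its strain mean on the log2 scale, coloured by strain. Hbb-bt rises with Alas2 (r = 0.67), with ISS profile 6 at the far right, and Hbb-bs shows no trend (r = 0.02).

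Across all genes this relation did not pass. In a limma fit with strain as a term, Hbb-bt changed by 1.39 log2 units per log2 unit of Alas2 (SE 0.34, unadjusted p = 0.00055), and the adjusted p over 20616 genes was 0.9998. The fit called 0% of the genes, with 789 at an unadjusted p under 0.05. The slope was 1.52 in the ILS and ISS profiles alone (SE 0.36) and 1.11 in the LXS41 and LXS80 profiles alone (SE 0.64). With set in place of strain, the slope of Hbb-bt was 1.34 and its r with Alas2 was 0.56. The 10 genes with the largest r were Ube2l6 (0.82), an enzyme of ISG15 conjugation, Gm26565 (0.75), the anion transporter Slc26a7 (0.73), Gm11571 (0.72), ENSMUSG00000052471 (0.71), the galectin Lgals1 (0.70), 1700028P14Rik (0.68), Tcte1 (0.68), the phosphatase 1 inhibitor Ppp1r11 (0.68) and Rida (0.67). No listed erythroid gene was among these 10, and Hbb-bt ranked 13 with 0.67. Of the 13 erythroid genes tested besides Alas2, Hemgn had an r of 0.33, Gata1 0.32 and the red cell anion exchanger Slc4a1 0.15, and Car1, a carbonic anhydrase of red cells, had -0.49, none past the test.

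Both tables could be read for LXS41 and LXS80 alone. LXS41 had a signal of 11029 for miR-451a, 1133 for miR-144-3p, 1897 for miR-144-5p and 28185 for miR-486a-5p. LXS80 had 10069, 894, 1552 and 21386 for the same miRNAs. Both strains had libraries in several batches, 3 of each in batch 1. The miRNA signal was higher in LXS41 for all 4 miRNAs, with no error available, while Hbb-bt was -0.24 and Hbb-bs 0.17 in LXS41 minus LXS80 and Alas2 was level at 0.01. With 2 strains and profiles that the labels do not tie to the sequenced animals, no relation between the tables was computed.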

How the data were processed

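Small RNA libraries were made with the Illumina TruSeq Small RNA kit per the labels' protocols, and 211 of 212 could be given a strain. The other, of batch 4, carries the names of 2 strains, LXS9 and LXS90, and was left out of the batch counts. Whether a deposited strain value includes it is unknown. The grouping of LXS9 under batch 5 alone or of LXS90 under batches 2 and 3 alone may thus be incomplete. The authors' normalized signal (normalization not given in the sources used here) has 1 column per LXS strain; their second table holds variance-stabilized values on a log2-like scale. The mRNA values were deposited as log2 levels; the sources used here name no platform, tissue or normalization for them, and the number of reads behind any value is unknown. Of the mRNA columns 23 were used; the other 376 belong to strains with more columns than labelled libraries, or with none, and were not used. Gene symbols were matched by identifier for 26820 of 27123 rows.

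miRNA tests used log2(signal + 1), which understates changes of low features, for features with a mean of at least 10 (limma 3.58.1 in R 4.3.3, trend and robust empirical Bayes). mRNA tests used genes at or above 6 in at least 5 profiles. P-values were adjusted by Benjamini and Hochberg over all features, threshold 0.05. Correlations used 100000 permutations, or all of them under 10 strains. The scripts were tested on simulated data. Profiles are separate columns of a strain, and p-values measure the spread between them, which may be technical. The members and lists were chosen with earlier results of these data known. Named besides the members are the 10 features most like miR-451a and the 10 genes most like Alas2. Up to 3 called members of each blood or vessel list are named too. Further names were added after their values were seen: miR-124-3p, miR-9-5p, Hemgn, Gata1, Slc4a1, Car1 and the uncalled leukocyte and platelet miRNAs and genes. Listed miRNAs not found by name were not analysed here.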

Additional observations from a re-analysis of the deposited data

Results flagged for a closer look

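Alas2 in ISS profile 6 stood at 7.66 on the log2 scale, and the gap to the next ISS profile, at 7.20, was 0.632 of the whole ISS range, above the limit of 0.625 for 6 values. Of 24 groups of samples examined in this way this was the 1 found, and chance gives about 1 in 20. The same profile was the highest of all in Hbb-bt (6.87) and unremarkable in Hbb-bs (6.38). Without it, r of Alas2 and Hbb-bt within strains was 0.62 (adjusted permutation p = 0.0145).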

How the results depend on the processing

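Alternatives within batches, in the later sets or in pairs of strains, and leaving out profiles in the correlations, were chosen after the data were seen. The call of all 4 miRNAs in the batch test, the absence of calls for HIGH against LOW and the absence of member calls between mRNA strains held under every alternative run. With miR-451a as covariate, 144 features were called in the variance-stabilized table, 463 without batch shares and 0 in the strains of batches 4 and 5, miR-144-3p among those lost there; miR-144-5p was called in the variance-stabilized table (slope 0.30) and miR-486a-5p without batch shares (-0.68). ILS against ISS gave 496 genes with set as a term, 294 in set 1 and 283 in the later sets, LXS41 against LXS80 1210 after quantile normalization, and Alas2 as covariate 1 gene (Ube2l6) with set in place of strain. The slope of miR-486a-5p on miR-451a turned to 0.38 in batches 4 and 5, ILS minus ISS of Hbb-bs to -0.050 and of Hbb-bt to 0.038 both with set as a term and in set 1, and the slope of Hbb-bs on Alas2 to -0.23 with set in place of strain. The causes were not tested.

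The r of miR-451a and miR-144-3p was 0.38 in batches 4 and 5, 0.80 in batch 5 and -0.35 in batches 2 and 3. That of miR-451a and miR-144-5p was 0.41 in the variance-stabilized table and 0.50 in batches 4 and 5. That of miR-451a and miR-486a-5p was -0.25 with batch shares removed, 0.15 in batches 4 and 5, 0.32 in batch 5 and 0.14 in batches 2 and 3. That of the miR-144 arms was 0.78 in batch 5 and 0.55 in batches 2 and 3. That of miR-144-3p and miR-486a-5p was -0.41 with batch shares removed, -0.049 in batches 4 and 5, 0.18 in batch 5 and -0.50 in batches 2 and 3. That of miR-144-5p and miR-486a-5p was -0.44 in the variance-stabilized table, -0.057 with batch shares removed, -0.17 without the 2 farthest strains, 0.0039 in batches 4 and 5, 0.11 in batch 5 and -0.12 in batches 2 and 3.

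Leaving out each profile in turn gave 1240 to 1644 genes for ILS against ISS, 2057 to 4653 for LXS41 against LXS80, 3103 to 5054 in the F test and 0 to 1 with Alas2. LXS41 against LXS80 had 2057 without LXS41 profile 1, 2255 without LXS41 profile 4 and 2567 without LXS80 profile 6; the F test had 3103 without LXS41 profile 1; Ube2l6 was called without LXS41 profile 4 or 5. ILS minus ISS of Alas2 was -0.19 to -0.05, the smallest without ISS profile 6, of Hbb-bt -0.38 to -0.16 and of Hbb-bs 0.005 to 0.13. LXS41 minus LXS80 was -0.050 to 0.038 for Alas2, -0.35 to -0.12 for Hbb-bt and 0.08 to 0.26 for Hbb-bs. The F value was 0.33 to 2.21 for Alas2, 1.61 to 3.67 for Hbb-bt and 1.27 to 2.79 for Hbb-bs. The slope on Alas2 was 1.26 to 1.69 for Hbb-bt and -0.14 to 0.17 for Hbb-bs. The r of Alas2 and Hbb-bt was 0.61 to 0.71, of Alas2 and Hbb-bs -0.12 to 0.14, and of Hbb-bt and Hbb-bs -0.13 to 0.10. No paired analysis was possible because the mRNA columns carry no replicate letters and the miRNA tables hold 1 value per strain.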
